A study of Gallus gallus with 3 samples.

Results

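The genes described here code for the factors that start and carry out protein synthesis on cytosolic ribosomes, measured as mRNA in breast muscle of the chicken (Gallus gallus). They are all genes whose symbol in the NCBI chicken RefSeq gene table begins with EIF or EEF, plus TPT1. The table holds 61 such genes. A row of the deposited tables was found for 45 of them, among 10663 named genes in all, and the other 16 were not analysed here. The rule goes by names and not by measured values, though it was set with earlier results of these data known.

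The birds were 42-day-old males of the Arbor Acres meat breed, kept in air with 50 ± 3 ppm of ammonia. All 3 libraries belong to this 1 group, and the numbers in their titles, 1 to 3, name them here. Other exposures were not analysed here, so an effect of ammonia cannot be read from these values. Nothing in the labels states that each library stems from its own bird. An SD here thus reflects the spread among 3 libraries, and that spread may be technical. A p-value here rests on the same 3 libraries and takes its smallest value whenever all 3 ratios share a direction, whatever their spread.

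Translation begins when eIF2, bound to GTP, brings the initiator tRNA to the small ribosomal subunit. The large eIF3 complex holds that subunit, and the eIF4 factors bind the cap of the mRNA and unwind its leader. eIF2B recharges eIF2 with GTP, and kinases that phosphorylate the alpha subunit of eIF2 slow that step. During elongation eEF1A delivers each aminoacyl-tRNA and eEF2 moves the ribosome along by 1 codon. Adult skeletal muscle of mammals is known for replacing the general form EEF1A1 with EEF1A2. TPT1 codes for the translationally controlled tumour protein, an abundant growth-related protein. In mammals its mRNA, like those of ribosomal proteins and EEF2, begins with a run of pyrimidines that ties its translation to mTOR signalling.

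Values are read as FPKM, which counts fragments relative to transcript length and library size, and rows of 1 gene were added up. The unit is inferred from the values and the depth of sequencing is not known, which leaves counting error without an estimate. The summed value of all 36977 transcripts was 569361, 586193 and 573648 FPKM in libraries 1 to 3. Over the 6650 genes with a mean of at least 1 FPKM, the Pearson correlation of log2 levels was 0.973 between libraries 2 and 3, and 0.950 between library 1 and each of them. Genes are not independent replicates. Library 1 was thus the least like the others, and several of the results that rest on it are also given without it. Of 10 marker genes of fast skeletal muscle 6 were matched, and they held 10.4 to 12.9% of the summed value, which fits the labelled tissue.

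All 45 genes reached at least 1 FPKM in each library, against 57.7% of all named genes. Their median mean level was 58.2 FPKM, beside 8.94 FPKM over the 6650 genes. Together they held 3.11, 2.35 and 2.29% of the summed value in libraries 1 to 3, a mean of 2.58 ± 0.457% (SD, n = 3). TPT1 and EEF1A2 made up 60.8 ± 1.52% of the members' own sum. The levels ran from 2.06 FPKM for the kinase gene EIF2AK3 to 5230.5 FPKM for TPT1. Ordered by mean, 15 of the 44 neighbouring pairs kept their order in all 3 libraries, and in the other 29 the order turned in at least 1 library. The positions of single genes between the top and the bottom are therefore approximate.

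**Figure D1:**
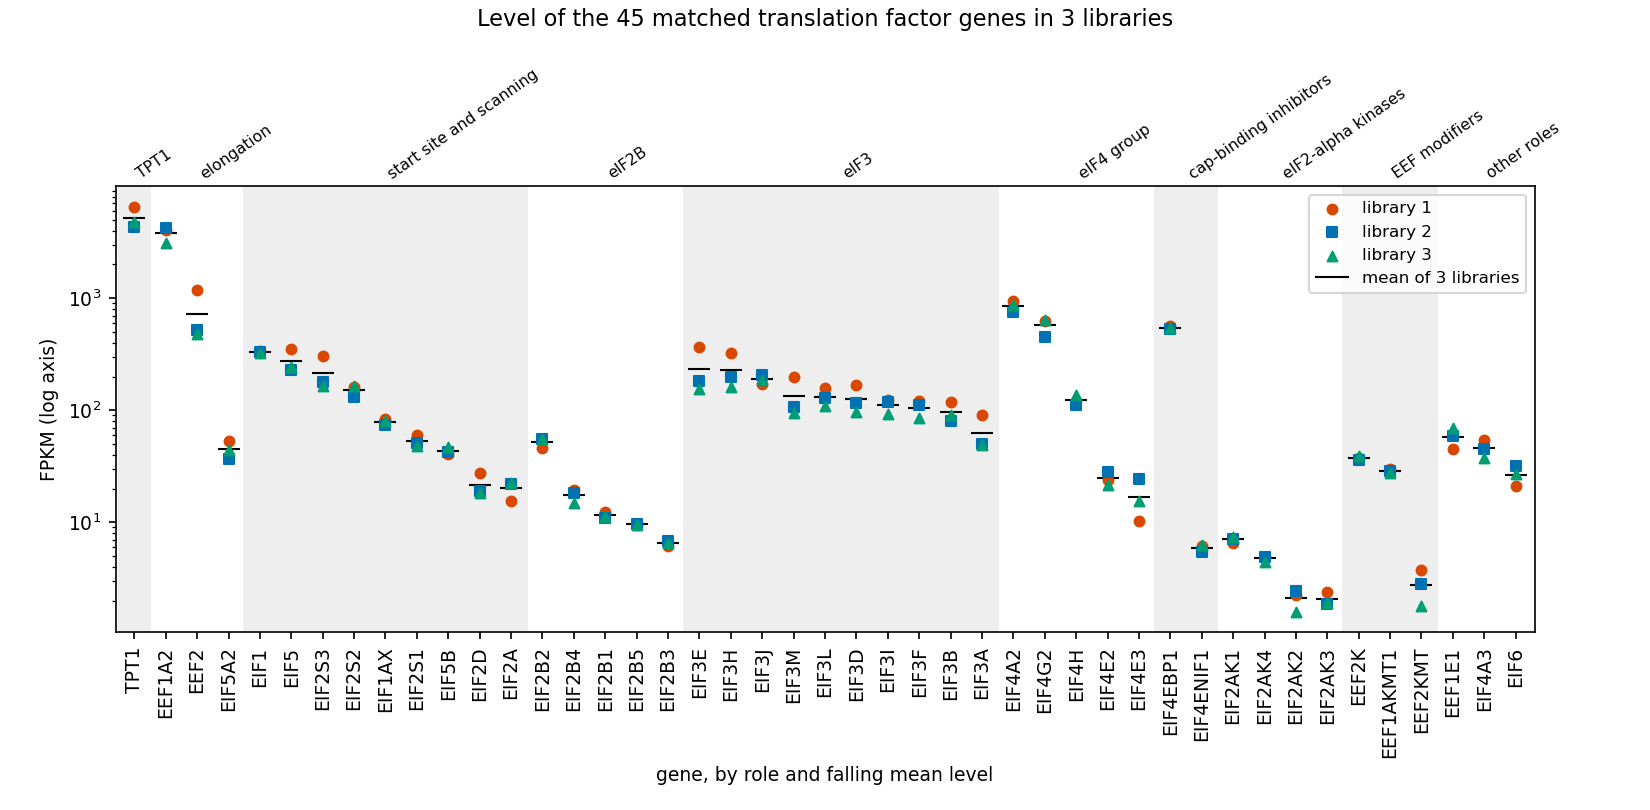
FPKM on a log axis of the 45 matched genes, grouped by role, with 1 marker for each library and a black line at the mean of 3 libraries. TPT1 and EEF1A2 stand above all others, and the eIF3 subunits lie within a band from 63.1 to 234 FPKM on average. The eIF2-alpha kinase genes EIF2AK2 and EIF2AK3 have the lowest means.

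Elongation was represented by EEF1A2, EEF2 and EIF5A2. Of the 9 elongation genes in the gene table, these 3 were matched, and EEF1A1, EEF1B2, EEF1D, EEF1G, EIF5A and EEFSEC were not. The comparison of EEF1A2 with EEF1A1 could therefore not be made, and the level of EEF1A1 in this muscle is not known here. EEF1A2, the muscle and nerve form in mammals, reached 4079, 4235 and 3080.3 FPKM in the 3 libraries in turn, a mean of 3798 ± 626 FPKM (SD, n = 3). Library 3 was the low one, at 0.741 times the mean of the other 2. EEF1A genes are close copies of each other, so reads of an EEF1A1 transcript could have been counted with EEF1A2, and the split is uncertain.

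EEF2, the translocase, was listed at 1186, 519.7 and 479 FPKM, a mean of 728 ± 397 FPKM. Library 1 was high, at 2.37 times the mean of libraries 2 and 3, while these 2 differed by a ratio of 1.08. In unscaled values EEF2 had the largest SD of log2(FPKM + 1) between libraries among members with a mean of at least 5 FPKM, at 0.72. After median-of-ratios scaling between libraries its ratio of highest to lowest library was 2.17, below the 2.62 of EIF4E3. The ratio of EEF2 to EEF1A2 was accordingly unsteady. On the log2 scale it was -1.78, -3.03 and -2.68, a mean of -2.50 ± 0.64, so EEF2 lay below EEF1A2 in 3 of 3 libraries. Without library 1 the mean was -2.86.

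EIF5A2, a form of the hypusine-bearing factor eIF5A that helps the ribosome past difficult peptide bonds, was far lower, at 53.6, 36.7 and 44.3 FPKM. TPT1 was listed at 6569.7, 4358 and 4763 FPKM, highest in library 1. It exceeded EEF1A2 in 3 of 3 libraries, by log2 ratios of 0.69, 0.04 and 0.63 and a mean of 0.45 ± 0.36. In library 2 the 2 genes were nearly level.

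Exact two-sided sign-flip permutation tests over the 3 libraries gave p = 0.25 for both ratios, EEF2 to EEF1A2 and TPT1 to EEF1A2. This is the smallest p that 3 libraries allow. After Benjamini-Hochberg adjustment over the 5 ratios tested, both had an adjusted p of 0.31 by the exact test. No ratio in this design can pass a threshold of 0.05.

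Of the regulators of elongation, EEF2K and EEF1AKMT1 were even across the libraries. EEF2K, the kinase that phosphorylates and inhibits eEF2, was listed at 37.9, 36.2 and 39.3 FPKM. EEF2 thus exceeded its kinase by a log2 ratio of 4.97 in library 1 against 3.84 and 3.61 in libraries 2 and 3, a pair chosen after its values were seen. EEF1AKMT1, a lysine methyltransferase of eEF1A, lay at 29.7, 28.8 and 27.4 FPKM. EEF2KMT, the methyltransferase of eEF2, was low and less even, at 3.78, 2.79 and 1.78 FPKM.

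Initiation was covered more fully, with 29 of 37 genes matched. Within the cap-binding and unwinding group, EIF4A2, an RNA helicase that opens the mRNA leader, was the highest of the matched initiation genes. It was listed at 939.7, 748 and 873 FPKM, a mean of 854 ± 97.0 FPKM. The gene table gives EIF4A1 as a synonym of EIF4A2, so the helicase forms were not told apart. EIF4G2, a scaffold related to eIF4G that lacks the site for the cap-binding protein, followed at 625, 451 and 645 FPKM. Its 2 curated transcripts held 36.2 ± 3.34% and 63.8 ± 3.34% of its value, and the larger one was the same in every library.

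EIF4H, which stimulates the helicase, lay at 121, 111 and 137 FPKM. Of the relatives of the cap-binding protein, EIF4E2, which in mammals competes for caps and represses, was listed at 24.1, 28.3 and 21.7 FPKM. Its value was divided mainly over 2 predicted transcripts, and the larger of them changed, with 1 holding 34.6, 56.1 and 40.7% in libraries 1 to 3. EIF4E3 was listed at 10.3, 24.3 and 15.4 FPKM, high in library 2 and low in library 1. It lay below EIF4E2 in 3 of 3 libraries, at a mean log2 ratio of -0.64 ± 0.52, a pair chosen after its values were seen. EIF4E, EIF4E1B, EIF4B, EIF4G1 and EIF4G3 were not analysed here, so the cap-binding complex itself is covered only by EIF4A2.

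Among the genes that hold cap binding in check, EIF4EBP1 was abundant and even. Its product binds eIF4E until mTOR phosphorylates it. It was listed at 570.1, 532 and 539 FPKM, a mean of 547 ± 20.3 FPKM, a coefficient of variation of 3.71%. It was the sixth highest of the 45 genes. EIF4ENIF1, which carries eIF4E into the nucleus, lay at 6.10, 5.39 and 6.29 FPKM. EIF4EBP2 and EIF4EBP3 were not analysed here.

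The factors of start-site selection spread over a wide range. EIF1, which guards the choice of the start codon, was the steadiest of the abundant genes in unscaled values, at 337, 329 and 322 FPKM. Its coefficient of variation was 2.28%. After median-of-ratios scaling between libraries, the ratio of highest to lowest library was 1.09 for EIF1 and 1.08 for EIF4EBP1. EIF1AX, the partner of EIF1, lay at 83.3, 73.4 and 79.5 FPKM. EIF5, which triggers GTP hydrolysis by eIF2, was listed at 349, 229.8 and 242 FPKM, high in library 1. EIF5B, which joins the large ribosomal subunit, lay at 40.7, 42.4 and 47.0 FPKM. The alternative tRNA-binding factors EIF2D and EIF2A went opposite ways: EIF2D was highest in library 1 (27.7, 18.9 and 18.1 FPKM) and EIF2A lowest there (15.6, 22.1 and 22.6 FPKM).

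The 3 subunits of eIF2, which assemble in equal numbers, had unequal mRNA levels. EIF2S3, the subunit that binds GTP, was listed at 303, 179 and 165 FPKM. EIF2S2, the beta subunit, lay at 161, 131 and 164 FPKM, level with EIF2S3 in library 3. EIF2S1, the alpha subunit that the stress kinases phosphorylate, was lowest in all 3 libraries, at 60.2, 51.1 and 48.2 FPKM. The mean log2 ratio to EIF2S1 was 1.97 ± 0.31 for EIF2S3 and 1.52 ± 0.22 for EIF2S2, both chosen after their values were seen.

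All 5 subunits of eIF2B were matched, and 0 of 5 differed by over 1.5 times between libraries, beside 49.3% of all genes. EIF2B5, the catalytic subunit, was the steadiest of all members in unscaled values, at 9.50, 9.68 and 9.54 FPKM. Its coefficient of variation was 0.989%. After median-of-ratios scaling its ratio of highest to lowest library was 1.15, above the 1.04 of EIF2B1. EIF2B2, of the regulatory core, was the highest, at 45.8, 55.6 and 55.7 FPKM, and EIF2B3 the lowest, at 6.16, 6.87 and 6.56 FPKM. The log2 ratio of EIF2B2 to EIF2B3 was 3.00 ± 0.10, also chosen after its values were seen. EIF2B4 and EIF2B1 lay between, with means of 17.6 and 11.5 FPKM.

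The 4 kinases of the eIF2 alpha subunit, each tied to another stress in mammals, were the lowest group. EIF2AK1, which senses haem shortage, was listed at 6.59, 7.06 and 7.46 FPKM. EIF2AK4, which senses uncharged tRNA, lay at 4.91, 4.95 and 4.46 FPKM. EIF2AK2, activated by double-stranded RNA, lay at 2.24, 2.45 and 1.60 FPKM, and EIF2AK3, of the endoplasmic reticulum stress response, at 2.40, 1.87 and 1.92 FPKM. EIF2AK1 exceeded EIF2AK2 by a mean log2 ratio of 1.77 ± 0.39, and EIF2AK3 lay at -1.22 ± 0.19 to EIF2AK4. Each held in 3 of 3 libraries with an exact sign-flip permutation p of 0.25 (adjusted p = 0.31). Taken on FPKM + 1, the mean log2 ratios were smaller, at 1.38 for EIF2AK1 to EIF2AK2 and -0.92 for EIF2AK3 to EIF2AK4.

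The gene table holds 12 genes of eIF3, and all but EIF3G and EIF3K were matched, leaving 10. Their mean levels spanned a ratio of 3.70. EIF3E was listed at 366, 181 and 155 FPKM, EIF3H at 324, 198 and 161 FPKM and EIF3M at 199, 107 and 95.3 FPKM. All 3 were high in library 1. EIF3A, the largest subunit and the core of the complex, was the lowest at 90.5, 50.2 and 48.6 FPKM, also high in library 1. EIF3D, which can bind caps in mammals, was listed at 168, 116 and 96.2 FPKM. EIF3B, EIF3F, EIF3I and EIF3L had means between 96.1 and 132 FPKM. EIF3J, a loosely bound subunit, was the exception, at 172, 208 and 187 FPKM, lowest in library 1.

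The summed levels of elongation and initiation genes were close, and their ratio lay on both sides of 1. Matched elongation genes summed to 5318, 4791 and 3604 FPKM, and matched initiation genes to 5029, 3842 and 4018 FPKM. The log2 ratio of elongation to initiation was 0.08, 0.32 and -0.16, a mean of 0.08 ± 0.24 (SD, n = 3), and the exact sign-flip permutation test, two-sided, gave p = 0.75 (adjusted p = 0.75). Library 3 lay on the other side of 0 from libraries 1 and 2. EEF1A2 alone carried the elongation side: without it the mean was -2.58 ± 0.49. With classes taken from the symbol's prefix the mean was -0.11, and without EEF2 it was -0.16. Both sums are lower bounds, with 6 of 9 elongation genes and 8 of 37 initiation genes not analysed here, so the balance of the whole groups is not known. The median elongation level exceeded the median initiation level by a log2 difference of 2.65 ± 0.55, from 3 against 29 genes. With 3 elongation genes, that median was EEF2 alone in every library.

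**Figure D2:**
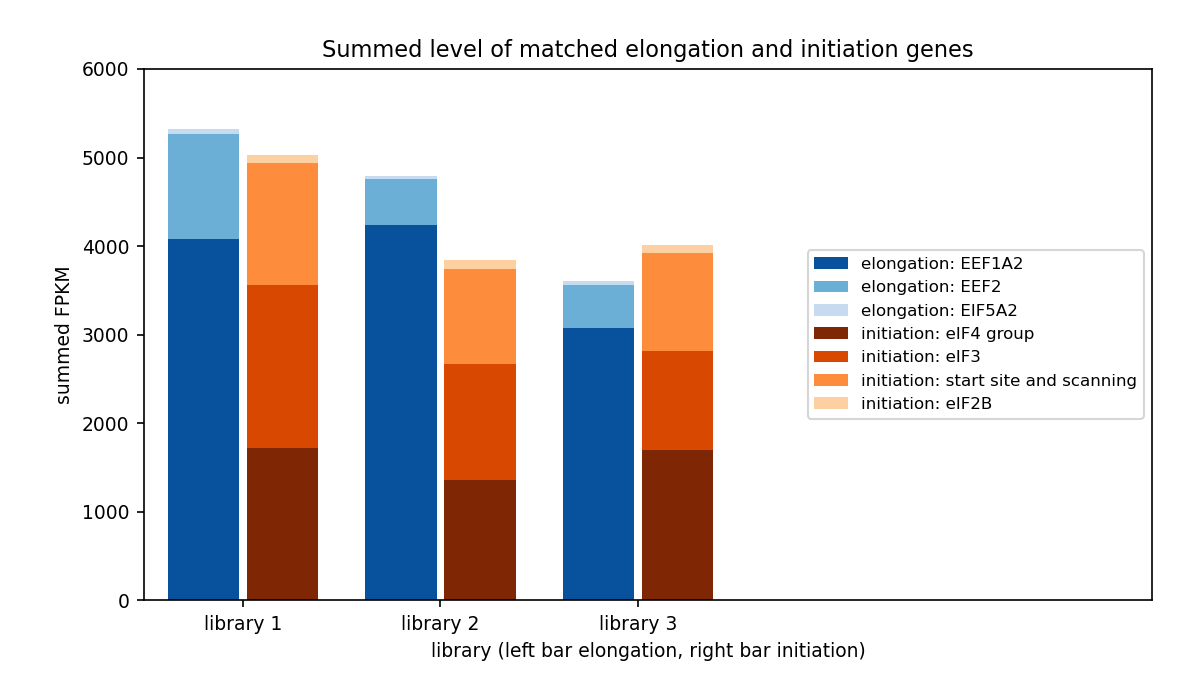
Summed FPKM of matched genes in each library, stacked by gene for elongation (left bars) and by complex for initiation (right bars). The elongation bar is higher in libraries 1 and 2 and lower in library 3, and EEF1A2 makes up most of it in each library.

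Between libraries the members followed all genes at the median but not group by group. Differences here are log2(FPKM + 1) in 1 library minus the mean of the other 2. The median over the 6650 genes was 0.16, -0.05 and -0.09 in libraries 1 to 3, and over the 45 members 0.18, -0.06 and -0.10. In library 1 the members' median minus that of all genes was 0.02. Over other settings it lay between -0.02 (without library 2) and 0.16 (no filter on low values). Within 3 classes of mean level, a setting chosen after seeing the data, it was 0.11. Of the 45 members 26 were highest in library 1, 9 in library 2 and 10 in library 3, beside 51.5, 26.1 and 22.4% of all genes. The lowest library was library 1 for 10 members, library 2 for 14 and library 3 for 21, beside 25.5, 35 and 39.4% of all genes. The members' counts lie near these background shares. After median-of-ratios scaling 17, 13 and 15 members were highest in libraries 1 to 3, beside 37.4, 30.9 and 31.6% of all genes.

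The eIF3 subunits had a median of 0.56 in library 1 and -0.45 in library 3. Of the 10, 9 had their highest value in library 1 and 8 their lowest in library 3, beside 51.5 and 39.4% of all genes. With the same scaling these counts were 7 and 8 of 10, beside 37.4 and 30.6% of all genes. Without library 1, 9 of the 10 were lower in library 3 than in library 2, against 52.3% of all genes. The eIF2B subunits had medians of -0.02, 0.10 and -0.01, and the eIF4 group -0.03, -0.22 and 0.06. The start-site factors had 0.14, -0.15 and -0.05.

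**Figure D3:**
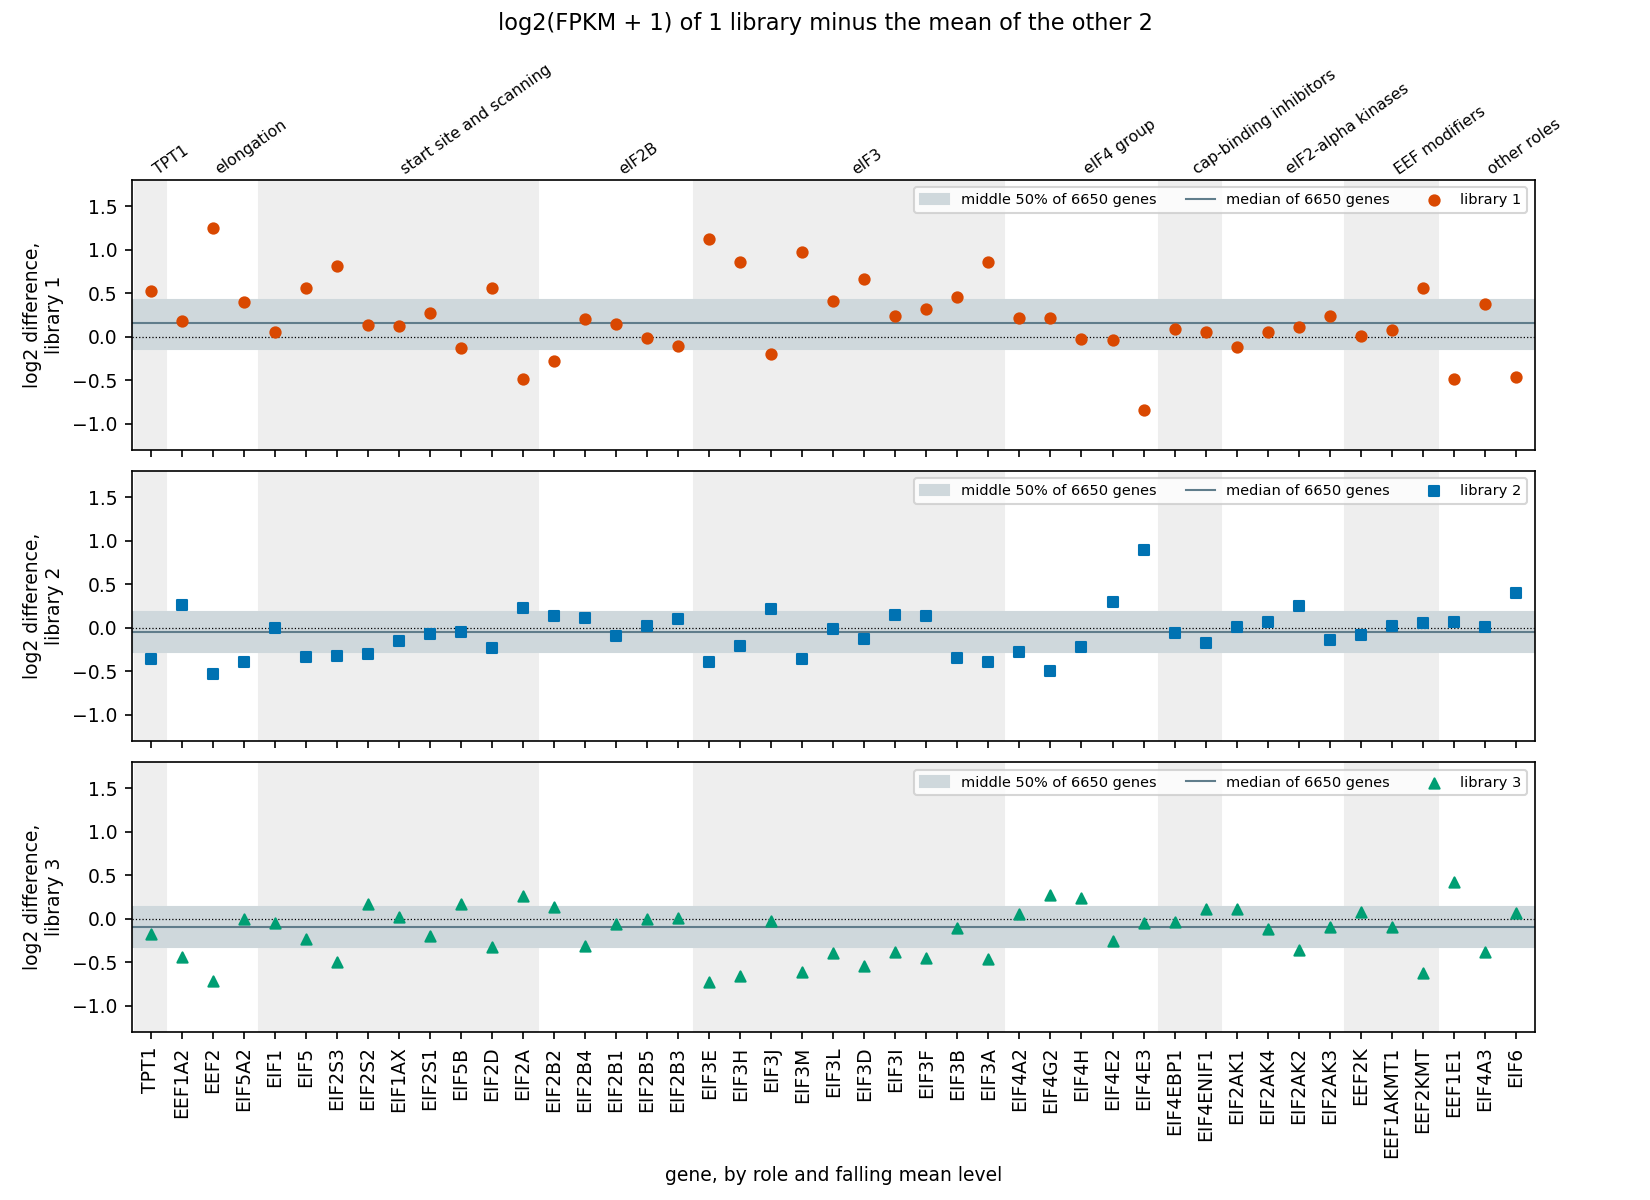
Difference of each member in 1 library from the mean of the other 2, as log2(FPKM + 1), in 1 panel for each library, beside the median (line) and the middle 50% (dark band) of the 6650 genes. In library 1, EEF2, EIF3E, EIF3M, EIF3H, EIF3A and EIF2S3 stand farthest above the band, and EIF4E3, EIF2A, EEF1E1 and EIF6 farthest below it.

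The spread of single members was set beside that of all genes. A ratio of the highest to the lowest library above 1.5 was found for 15 of 45 members, or 33.3%, beside 49.3% of all genes. Among genes with a mean of at least 5 FPKM it was 13 of 41 members beside 42.4%. With no filter and the ratio taken on FPKM + 1, which understates differences of low genes, it was 12 of 45 members beside 27.9%. The members' median mean level was 58.2 FPKM, against 8.94 FPKM for all genes kept, and these counts were not matched by level. Whether members were steadier than other genes of their level was thus not tested. A ratio above 2 was reached by 6 members, beside 22.2% of all genes: EEF2, EIF3E, EIF4E3, EEF2KMT, EIF3M and EIF3H. After median-of-ratios scaling EEF2, EIF3E and EIF4E3 stayed above 2, at 2.17, 2.07 and 2.62. EEF2KMT, EIF3M and EIF3H fell below it, to 1.86, 1.83 and 1.77. Of the 15 members 11 were highest in library 1, beside 56.2% of all genes that differed by over 1.5 times. These 11 were TPT1, EEF2, EEF2KMT, EIF5, EIF2S3, EIF2D and the eIF3 subunits A, D, E, H and M. After median-of-ratios scaling TPT1, EIF5, EIF2D and EIF2AK2 fell below 1.5 and EIF2A rose above it. That left 12 of 45 members, beside 46.9% of all genes. With library 1 left out, 3 of 45 members differed by over 1.5 times, beside 21.1% of all genes. Without library 2 there were 10 members beside 33.8%, and without library 3 also 10 beside 32.6%. No test was applied to these counts, since genes are not replicates.

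**Figure D4:**
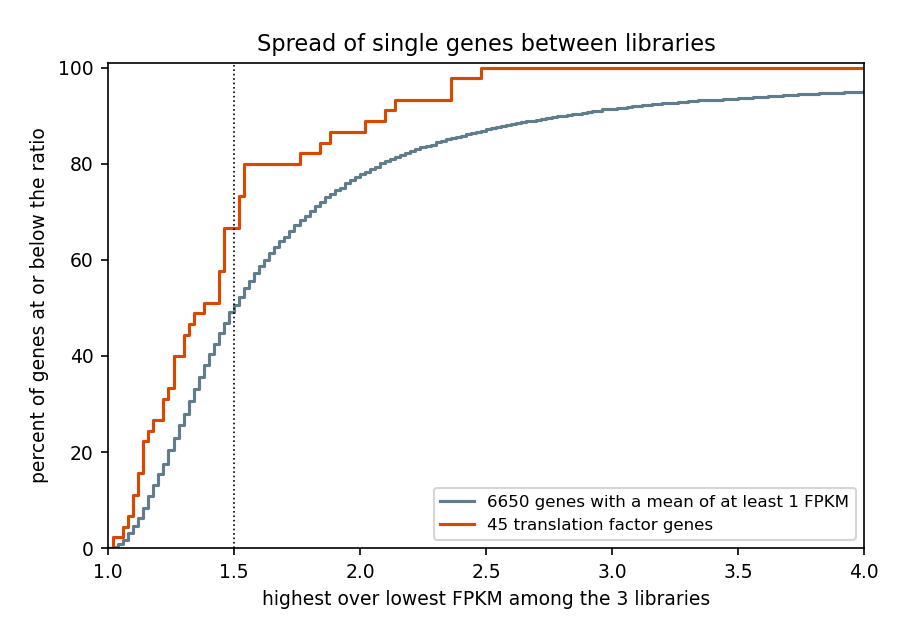
Percent of genes whose highest library lies at or below a given multiple of the lowest, for the 45 members and for the 6650 genes with a mean of at least 1 FPKM. At the dotted line of 1.5 the members' curve lies above that of all genes, with 15 of 45 members beyond it. The 2 sets were not matched by level, and the members have the higher median level.

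The 4 members over 1.5 times that were not highest in library 1 were EEF1E1, EIF6, EIF4E3 and EIF2AK2. EEF1E1, a companion of the tRNA synthetase complex rather than an elongation factor, was listed at 45.5, 59.0 and 70.0 FPKM. EIF6, which keeps the large ribosomal subunit from joining too early, lay at 21.1, 31.9 and 27.2 FPKM. EIF4E3, of the eIF4 group of initiation genes, and the kinase gene EIF2AK2 were highest in library 2, as EIF6 was. EIF4A3, a helicase of the exon junction complex, lay at 53.9, 45.4 and 37.8 FPKM, a ratio of 1.42.

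Other genes that act on the same steps were read from fixed lists. PABPC1, which binds the poly(A) tail and contacts eIF4G, was listed at 480.4, 155 and 123 FPKM. PAIP2B, an inhibitor of poly(A)-binding protein, was low in library 1, at 92.2, 145.6 and 137 FPKM. Of the mTOR pathway genes 8 of 14 were matched. SESN1, a sestrin that restrains mTOR complex 1, was listed at 553, 55.0 and 53.0 FPKM, and DEPTOR, another inhibitor, at 94.8, 43.0 and 69.0 FPKM. The other 6, MTOR among them, had means from 7.11 to 47.5 FPKM, and 3 of the 8 differed by over 1.5 times between libraries, beside 49.3% of all genes.

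Ribosomal protein genes, taken by symbol prefix, had nearly equal medians in libraries 1 and 2 and a low one in library 3, at 0.22, 0.17 and -0.39. Of these 61 genes 53 were lowest in library 3, beside 39.4% of all genes. EEF1A2 and EEF2 were also lowest there, while EIF5A2 and TPT1 were lowest in library 2. In library 1 the difference of EEF2 was 1.25 and that of EEF1A2 was 0.18. A test between these genes and the ribosomal list was not run.

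The remaining lists hold the later steps of translation and its supply of charged tRNA. Termination and recycling factors were matched for 5 of 6 genes, and 1 differed by over 1.5 times, a share under the 49.3% of all genes. ETF1, which recognises stop codons, lay at 70.9, 90.1 and 76.5 FPKM, and GSPT2, a GTPase of termination, at 38.1, 40.2 and 44.6 FPKM. Of the mitochondrial translation factors 7 of 9 were matched, 1 through a synonym. MTIF3, a mitochondrial initiation factor, lay at 91.7, 79.8 and 65.4 FPKM, and GFM1, an elongation factor of mitochondria, at 22.1, 20.8 and 25.2 FPKM. Of the cytosolic tRNA synthetases 5 of 20 were matched, 2 through a synonym, and 4 of these 5 were lowest in library 1, beside 25.5% of all genes. AARS1, the alanine enzyme, was listed at 52.3, 63.4 and 65.0 FPKM and SARS1, the serine enzyme, at 34.7, 49.8 and 37.1 FPKM. Of the subunits of phosphatases that act on eIF2 alpha 3 of 5 were matched. The catalytic PPP1CB was listed at 64.0, 90.9 and 106.6 FPKM and PPP1CC at 51.1, 44.9 and 47.1 FPKM.

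Markers of other cell types differed between the libraries too. In bulk tissue, fewer cells of a type and less RNA per cell cannot be told apart. The 6 fast muscle markers held 10.4, 12.7 and 12.9% of the summed value in libraries 1 to 3. Of the 6, 4 were lowest in library 1, where EEF2 and most eIF3 genes were highest, while TNNC2 (14970.2, 14728 and 13542 FPKM) and PVALB (2.37, 1.46 and 1.28 FPKM) were highest there. Macrophage markers (8 of 9 matched) held 0.071, 0.060 and 0.030%, with 7 of 7 genes above 1 FPKM lowest in library 3. Fibroblast markers (7 of 8) held 0.071, 0.150 and 0.114%, with 5 of 7 lowest in library 1 but PDGFRA highest there. Adipocyte markers (6 of 6) held 0.032, 0.022 and 0.013%. Of their 5 genes above 1 FPKM 4 were lowest in library 3, but ADIPOQ was highest there. Of all genes 25.5% were lowest in library 1 and 39.4% in library 3. Endothelial markers (5 of 6) held 0.015, 0.009 and 0.010%. Of these 5, 3 were highest in library 1 and 2, CDH5 and KDR, in library 3, beside 51.5 and 22.4% of all genes. Red blood cell markers (5 of 8, 1 through a synonym) held 0.015, 0.073 and 0.054%. The match through a synonym was ALAS1, which stood in the place of the planned marker ALAS2, at 12.9, 17.9 and 17.5 FPKM. Most of the red blood cell sum was CA2, at 45.7, 354.8 and 188.7 FPKM, while the haemoglobin gene HBBA lay at 24.3, 54.1 and 98.7 FPKM, highest in library 3. No matched marker was at exactly 0 in all libraries, but of the haemoglobin genes HBAD was listed near 0 in all 3 and HBA1 in libraries 1 and 2. The part of these cell types in the differences of EEF2, eIF3 and TPT1 was not tested.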

How the data were processed

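RNA of breast muscle was sequenced as 3 libraries of 1 group. Per the submitters' processing notes, CASAVA 1.7, Bowtie2 and HTSeq were used, with no role stated. Which build, annotation and quantifier lie behind the tables is not given in the sources used here. The authors deposited 1 value per RefSeq transcript and library with no unit named. These were treated as FPKM, an inference from the deposited values. Low values showed no steps of whole reads: of 922 low transcripts, no more than 4 had the same ratio of library 1 to library 2, taken as its natural log to 3 decimals.

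Accessions, version dropped, were matched to NCBI's chicken gene table (assembly GRCg7b), from which only names were taken. In all, 13188 of 36977 transcripts matched, and 56 rows belonged to members, 30 curated and 26 predicted. Only 2 of the 56 had the same version. A gene's value is the sum of its rows. The planned ratio of EEF1A2 to EEF1A1 and 11 other planned pairs lacked a matched gene, so 4 of 16 pairs were tested. Differences between libraries used log2(FPKM + 1) for genes with a mean of at least 1 FPKM. That scale understates differences of low genes. Ratios were tested by exact sign-flip permutation over libraries with Benjamini-Hochberg adjustment. Scripts (Python 3.11.15, numpy 2.4.6, pandas 2.3.3) were tested on simulated data.

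The members, lists, tests and pairs were chosen with earlier results of these data known. Genes named by rule were TPT1, the elongation list, both genes of each pair, the 2 highest and the lowest member of each list, the 5 members of largest spread with a mean of at least 5 FPKM, and the 2 highest of each other list. Other members were named so that each is accounted for. Alternatives were each library left out, the highest row only, curated transcripts only, other classes, pseudocounts, filters and scaling.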

Additional observations from a re-analysis of the deposited data

How the results depend on the processing

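No test of elongation against initiation could pass 0.05, since 3 libraries allow no exact sign-flip p below 0.25. The mean log2 ratio of summed elongation to initiation genes, 0.08, turned direction in several settings. It was -0.11 with classes by symbol prefix, which adds EIF4EBP1 and other genes to the initiation side. It was -2.58 without EEF1A2 and -0.16 without EEF2, since these genes carry the elongation sum. With 1 library left out it lay between -0.038 (without library 2) and 0.20 (without library 3). Counting TPT1 with elongation gave 1.18. The number of members differing by over 1.5 times between libraries was 15, beside 49.3% of all genes. With no filter and the ratio on FPKM + 1 it was 12 of 45, beside 27.9% of all genes. With 1 library left out it was 3 to 10, beside 21.1 to 33.8% of all genes. The 3 were found without library 1, beside 21.1%. A ratio over 2 libraries cannot exceed that over 3, so these counts could not rise. The members' share of the summed value, 2.58%, was 3.36% of curated transcripts only, 1.67% without TPT1 and 3.46% of named genes. The last 2 moved by construction. With 1 library left out it was 2.32 to 2.73%. The other 42 values of these results, and 22 values for single pairs and genes, were counted as unchanged. For the members' medians minus those of all genes, this was judged against a spread of 0.22. That is wider than any of these medians, so the label says little. Several of them changed sign: in library 1 the value was 0.02 in the main setting and -0.005 after median-of-ratios scaling. The counts and the single-gene ratios between libraries had no spread to be judged against. The settings with TPT1 moved, without EEF2, within classes of mean level, and the scaling of single genes were chosen after seeing the data. Scaled between libraries, EEF2 in library 1 was 2.10 times the mean of the other 2, EIF3E 1.93 times, EIF3M 1.75 times, EIF3H 1.60 times and EIF2S3 1.56 times. No paired analysis was possible because there is only 1 group. EEF1A2 against EEF1A1 was not run, since EEF1A1 was not matched. Depth is unknown and limits how firmly the low genes, such as the kinases, can be read.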
